A study of Mus musculus with 3 samples.

Results

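Muscle progenitors, taken here as barcodes with early muscle factors and no Myog, were picked out of single-cell RNA-seq of the embryonic soft palate. Of 14049 barcodes that passed quality limits, 96 met the rule. Members were chosen by their measured counts. A progenitor was a barcode in which 500 genes or more were detected, mitochondrial counts were 10% or less, and the sum of Pax7, Myf5 and Myod1 reached 2 unique molecular identifiers (UMIs, each standing for 1 captured transcript). It also had no UMI of Myog, fewer than 3 UMIs summed over Ttn, Mylpf and Acta1, and none of Epcam, Cdh5 or Tyrobp. The levels of these 10 genes are therefore given as a description and are not tested. Progenitors were compared with 243 barcodes that held at least 2 UMIs of Myog, called Myog barcodes here. The tissue was the posterior part of the palatal region of C57BL/6 embryos at E14.5, and libraries were made with 10x 3′ v2 reagents, which count transcripts at their 3′ end. There were 2 control libraries, control 1 and control 2, and 1 mutant library of Osr2-Cre;Alk5fl/fl embryos. The labels give the control genotype as control without naming alleles, and the study's figure legends name littermates with floxed Tgfbr1 on both alleles or on 1. Alk5 is the older name of Tgfbr1, the type I TGF-β receptor. Osr2-Cre acts in the palatal mesenchyme around the muscle, so the progenitors themselves are not the cells the cross was designed to change. The number of embryos behind each library is not given in the sources used here.

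Skeletal muscle forms from dividing progenitors that carry the paired-box factor Pax7 and the early myogenic regulatory factors Myf5 and Myod1, which are basic helix-loop-helix proteins that bind the E-box motif. When a progenitor commits, it turns on the related factor Myog, leaves the cell cycle with the help of inhibitors such as Cdkn1a, fuses with its neighbours through the membrane proteins Mymk and Mymx, and builds sarcomeres. Notch signalling between neighbouring cells is known to hold progenitors back from this step. Muscles of the head and pharynx, including those of the soft palate, arise from branchial arch mesoderm and use the upstream factors Tbx1, Msc and Tcf21 in place of Pax3, which serves in the trunk and limbs.

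Promoters of gate genes and of Cdh15, a muscle cadherin, are shown because the early factors and Myog act on E-boxes, spelled CANNTG, which reads the same on both strands. Each window runs from 250 bases before to 50 bases after the start of the gene, is taken from RefSeq on GRCm38.p6 and is printed on the strand of the gene with each E-box in capitals. Of Pax7, Myf5, Myod1, Myog, Mymk and Cdh15, 4 matched, all but Myod1 and Mymk. The Myf5 window on the minus strand at chr10:107486085-107486384 held 0 E-boxes, the Myog window on the plus strand at chr1:134289754-134290053 held 2, and the Cdh15 window on the plus strand at chr8:122848124-122848423 held 4. The Pax7 window held 0. Among 32851 promoter windows of this length, 72.3% held at least 1 E-box and 6.49% held at least 4, so a match is common and is given as a description of the letters only.
Myf5: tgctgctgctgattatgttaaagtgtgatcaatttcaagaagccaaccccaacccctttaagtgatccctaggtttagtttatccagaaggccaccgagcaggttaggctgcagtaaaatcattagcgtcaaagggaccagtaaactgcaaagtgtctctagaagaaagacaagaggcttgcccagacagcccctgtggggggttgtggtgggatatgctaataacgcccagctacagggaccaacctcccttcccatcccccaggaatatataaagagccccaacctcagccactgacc
Myog: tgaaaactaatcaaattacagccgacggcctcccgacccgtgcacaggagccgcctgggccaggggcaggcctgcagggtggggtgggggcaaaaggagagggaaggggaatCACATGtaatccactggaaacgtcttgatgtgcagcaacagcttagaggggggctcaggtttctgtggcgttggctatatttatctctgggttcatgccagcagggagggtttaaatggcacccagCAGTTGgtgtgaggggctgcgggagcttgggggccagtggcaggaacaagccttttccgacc
Cdh15: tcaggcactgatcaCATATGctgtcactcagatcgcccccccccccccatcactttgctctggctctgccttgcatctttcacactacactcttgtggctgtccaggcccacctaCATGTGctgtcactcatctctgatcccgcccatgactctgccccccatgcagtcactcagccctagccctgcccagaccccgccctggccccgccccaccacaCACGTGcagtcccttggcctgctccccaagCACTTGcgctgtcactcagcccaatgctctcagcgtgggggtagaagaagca

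The libraries differed in depth and in muscle RNA found outside muscle cells. Values given in threes below are in the order control 1, control 2 and mutant. Control 1 held 22624711 UMIs in 2816 barcodes, control 2 held 27814907 in 4067 and the mutant held 63505144 in 8690. The quality limits left 2117, 3821 and 8111 barcodes with a median of 8238, 5286 and 5272 UMIs. The libraries shared between 18 and 49 barcode sequences, and 0 progenitor barcodes were among them. Muscle transcripts outside muscle cells were common in control 1. In barcodes with at least 3 UMIs of the myeloid gene Tyrobp and none of Epcam or Cdh5, which should lack muscle transcripts, a Myog UMI was found in 18.9% of 74 barcodes of control 1, in 2.17% of 92 of control 2 and in 0 of 169 of the mutant, which allows a share of up to 1.77%. A UMI of Pax7, Myf5 or Myod1 was found in 1.35%, 1.09% and 0% of the same barcodes, and 0 of them held 2, which allows up to 4.05%, 3.26% and 1.77%. In control 1, 42.2% of the Myog barcodes also held at least 2 UMIs of the mesenchymal genes Prrx1, Twist1, Twist2 and Msx1, against 12.3% in control 2 and 15.3% in the mutant. Of the progenitors, 23.1%, 18.9% and 19.6% held as many. Barcodes with at least 2 of these UMIs that were in none of the other populations are called mesenchymal barcodes here. The part of this RNA in the shares was not tested.

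Progenitors made up 0.614% of the kept barcodes in control 1 (13 of 2117, 95% Clopper-Pearson interval 0.327 to 1.05), 0.968% in control 2 (37 of 3821, 0.683 to 1.33) and 0.567% in the mutant (46 of 8111, 0.416 to 0.756). The mutant value lay below both controls, its interval overlapped both, and the controls differed from each other by more than control 1 differed from the mutant. Myog barcodes made up 4.25% of the kept barcodes in control 1 (3.43 to 5.20), 2.12% in control 2 (1.69 to 2.63) and 0.888% in mutant tissue (0.695 to 1.12), and these intervals did not overlap. Progenitors were 12.6% of both populations together in control 1 (6.89 to 20.6), 31.4% in control 2 (23.1 to 40.5) and 39.0% in the mutant (30.1 to 48.4), with control 2 and the mutant overlapping. On the log2 scale the mutant share over the mean control share was -0.48 for progenitors and -1.84 for Myog barcodes. Without control 1 it was -0.77 and -1.26, and without control 2 it was -0.11 and -2.26. The single mutant library allows no test of genotype, and all intervals cover counting error only.

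**Figure D1:**
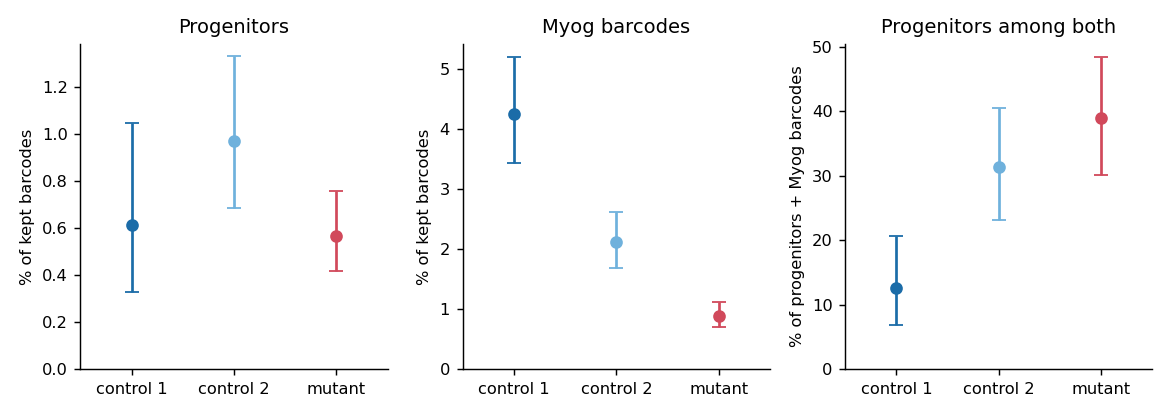
Shares of progenitors and of Myog barcodes among kept barcodes, and of progenitors among both, in each library (points, percent, with 95% Clopper-Pearson intervals). Progenitor shares lie between 0.567% and 0.968%, while Myog barcodes fall from 4.25% in control 1 to 0.888% in the mutant.

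A gate on UMIs favours deep barcodes. The progenitors had a median of 17921, 7936 and 7880.5 UMIs, each above the median of its library, and their summed counts were 211231, 381751 and 417500 UMIs. When every barcode was first thinned to 2000 UMIs, 7, 10 and 11 progenitors were left, which is 0.352%, 0.281% and 0.145% of the barcodes deep enough to thin, and the mutant share was again the lowest. Progenitors were then 13.0%, 14.7% and 16.4% of both populations, so the difference between the libraries in that share was much smaller than in full counts. The limit on Ttn, Mylpf and Acta1 took 10, 7 and 3 barcodes out of the gate before the genes of other cell types were applied. Among the members left, 10 of 13, 16 of 37 and 15 of 46 still held a UMI of these genes. The name progenitor therefore does not mean that late muscle RNA was absent. Just outside the gate, barcodes with a sum of 1 UMI of Pax7, Myf5 and Myod1 numbered 46, 39 and 38, with Msc at 47.5, 174 and 143 CPM (counts scaled to a library sum of 1000000 UMIs). Just inside it, the 3, 10 and 18 barcodes with a sum of 2 carried Msc at 262, 656 and 327 CPM, and those with 3 or more carried 342, 478 and 252 CPM. Of the mesenchymal genes, Prrx1 was counted at 355, 243 and 241 CPM just outside the gate and at 93.7, 137 and 152 CPM just inside it.

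Within the progenitors the gate genes were spread over different members. Pax7, which marks the stem-like state, was counted in 5 of 13 progenitors of control 1, 24 of 37 of control 2 and 36 of 46 of the mutant. Myf5 was counted in 11, 30 and 29 of them, and Myod1 in 10, 19 and 22. A member held Pax7 with Myf5 but no Myod1 in 28 of 96 cases, all 3 genes in 17, Myf5 with Myod1 but no Pax7 in 14 and Pax7 with Myod1 but no Myf5 in 14. The summed levels of Pax7 were 42.6, 118 and 158 CPM, those of Myf5 128, 147 and 117 CPM and those of Myod1 89.9, 144 and 86.2 CPM. In these counts, which decided membership, Pax7 was lowest in control 1. Myod1 in Myog barcodes was at 259, 308 and 265 CPM, above the progenitors in each library.
Msc was counted in 3 of 3 members without Myod1 and 8 of 10 with it in control 1, in 15 of 18 and 15 of 19 in control 2, and in 22 of 24 and 12 of 22 in the mutant, where the shares were furthest apart. Hes6, a Notch-related repressor that rises with differentiation, was counted in 2 of 3 and 9 of 10, 11 of 18 and 14 of 19, and 14 of 24 and 19 of 22. Members with Myod1 in control 2 were deeper (median 12312 against 7294.5 UMIs), and these counts are descriptions.

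The label was checked on genes outside the rule. Msc, or musculin, a repressor that marks branchial arch muscle progenitors (ENSMUSG00000025930, chr1:14753346-14755992, minus strand), was counted in 75 of 96 progenitors. Its level was 322, 508 and 283 CPM, against 38.0, 29.5 and 16.5 CPM in Myog barcodes, 8.32, 3.94 and 0.624 CPM in mesenchymal barcodes and 0 in myeloid barcodes of all 3 libraries, which allows up to 5.08, 4.61 and 2.31 CPM. Progenitors stood far above the other populations in each library, and the groups did not overlap. After thinning to 2000 UMIs a Msc UMI was found in 46.2%, 40.5% and 39.1% of progenitors and in 6.67%, 7.41% and 2.86% of Myog barcodes. Pax3, the trunk and limb factor, was at 0 UMIs in the progenitors of every library, which allows up to 14.2, 7.86 and 7.19 CPM, and Lbx1 of migrating limb precursors had 1 UMI in all. Markers of other lineages were counted as well. Over the list of 5 myeloid genes the summed level was 28.4, 15.7 and 2.40 CPM in progenitors against 6112, 5702 and 3901 CPM in myeloid barcodes, with Ptprc at 0. Tyrobp is absent from progenitors by the rule and chose the myeloid barcodes, so the gates largely fix this difference and it is no check of the label. Over 6 glial genes, with Foxd3 at 0, the sum was at most 23.7 CPM. Neuronal genes were not lower than in Myog barcodes in each library. The 5 summed to 52.1, 5.24 and 35.9 CPM in progenitors against 33.4, 10.6 and 9.89 CPM, with Tubb3 and Elavl3 at 0. Stmn2, the most abundant, had 7, 2 and 11 UMIs, of which 6 in control 1 and 9 in the mutant were in 1 member each. It was the 1 neuronal gene tested and did not pass (log2 fold change 1.14, adjusted p = 0.17).

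Mesenchymal RNA was present in the progenitors. All 12 mesenchyme markers had UMIs there, with a summed level of 876, 1016 and 1334 CPM, compared with 1459, 1116 and 1820 CPM in Myog barcodes and 5055, 5192 and 5332 CPM in mesenchymal barcodes. Prrx1, Twist1, Twist2 and Msx1 are among the 12 and chose the mesenchymal barcodes, so the higher sum there is partly fixed by that choice. The most abundant marker was Col1a2 in progenitors and Col1a1 in Myog barcodes. Epithelial markers were lower in level than in Myog barcodes, with 61.5, 23.6 and 7.19 CPM summed over 7 genes against 548, 164 and 64.3 CPM, and Cldn7 and Trp63 were at 0 in progenitors, which hold no Epcam by the rule. Hemoglobin RNA differed between the libraries. The 7 erythroid genes summed to 2670, 731 and 311 CPM in progenitors and to 2970, 759 and 5790 CPM in Myog barcodes, with Hbb-bs the most abundant in progenitors. Of 5 erythroid genes tested below, 4 were lower in progenitors, and 0 without the mutant. The number was also 0 without the library as a block and with DESeq2, both described below. With a gate of 1 UMI 3 were higher and 0 lower. Endothelial genes summed to 18.9, 15.7 and 14.4 CPM in progenitors with Cldn5 at 0, and chondrocyte genes to 61.5, 78.6 and 69.5 CPM with Matn1 at 0. The part of this RNA in the differences below was not tested.

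The comparison with Myog barcodes asks which genes change as a progenitor commits to differentiation. UMIs were summed per library and population, and edgeR's quasi-likelihood test was run with the library as a block, so that the replicates are the 3 libraries. Of 5942 genes tested outside the gate, 301 were higher in progenitors at an adjusted p below 0.05 (5.07%) and 452 were lower (7.61%). The median log2 fold change of all genes tested was 0.0039. Counts of list members given below are to be read beside these shares, and many lists had few members tested. The populations were built to differ in myogenic stage, so p-values here say how repeatable a gene's difference was over the 3 libraries and not whether the populations differ. DESeq2 called 66 higher and 194 lower of the same 5942 genes, and without control 2 edgeR called 116 and 300 of 5348.

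The genes named as higher in progenitors held transcription regulators, surface proteins and growth genes. For each gene the CPM of progenitors come first and those of Myog barcodes second, and the first value in parentheses is the log2 fold change of edgeR. Msc led with a log2 fold change of 3.62 (SD of the 3 library ratios 0.59, adjusted p = 1.32e-19). Gm266, a gene without a settled name, followed at 2.87 (SD 0.66, adjusted p = 2.34e-06), with 94.7, 44.5 and 11.98 CPM in progenitors and 11.1, 5.90 and 3.30 CPM in Myog barcodes. Its mutant progenitor value was close to that of the Myog barcodes of control 1 and below the 16.2 CPM of mutant mesenchymal barcodes.
Chodl encodes chondrolectin, a membrane lectin, and was at 133, 126 and 213 CPM in progenitors against 31.6, 24.8 and 23.1 CPM (log2 fold change 2.46, SD 0.59, adjusted p = 1.69e-11). Mesenchymal barcodes held it at 36.9, 76.7 and 56.1 CPM, so progenitors were above them too. Nectin1, a cell adhesion receptor, was at 37.9, 60.2 and 52.7 CPM against 18.7, 13.0 and 6.59 CPM (1.90, SD 0.998, adjusted p = 8.89e-05). Islr, a secreted leucine-rich repeat protein also known from mesenchyme, was at 56.8, 47.2 and 62.3 CPM against 17.6, 14.2 and 18.1 CPM (1.69, SD 0.043, adjusted p = 1.19e-04). Mesenchymal barcodes held Islr at 36.0, 31.4 and 38.3 CPM. Progenitors lay above both comparison populations for Islr in each library.
Vgll3, a cofactor of the TEAD factors, was highest in control 2 in both populations, with 47.3, 291 and 100.6 CPM in progenitors and 28.1, 64.9 and 42.9 CPM in Myog barcodes (1.56, SD 0.72, adjusted p = 1.16e-06). Without control 2 its log2 fold change was 0.97 and no longer passed. Pdgfa, a growth factor whose receptor sits on mesenchyme, was at 431, 390 and 326 CPM against 113, 125 and 160 CPM (1.497, SD 0.46, adjusted p = 4.05e-09), and was counted in 84 of 96 progenitors. It was at 60.8, 72.9 and 65.1 CPM in mesenchymal barcodes. Phgdh, the first enzyme of serine synthesis, was at 317, 186 and 168 CPM against 97.7, 62.6 and 65.9 CPM (1.52, SD 0.18, adjusted p = 9.02e-09). Ccne1, the cyclin of the entry to S phase, was at 213, 223 and 172 CPM against 69.1, 72.0 and 69.2 CPM (1.49, SD 0.18, adjusted p = 2.36e-08). For Pdgfa, Phgdh and Ccne1 the lowest progenitor library stood above the highest Myog library.
Hmga1, an architectural chromatin protein, was at 223, 165 and 31.1 CPM against 60.9, 57.9 and 14.8 CPM (1.60, SD 0.40, adjusted p = 4.43e-07). It was lowest in the mutant in both populations. Without the library as a block the call was lost (adjusted p = 0.091). Col4a1, a basement membrane collagen, was at 89.9, 55.0 and 55.1 CPM against 35.7, 21.3 and 8.24 CPM (1.59, SD 0.80, adjusted p = 8.89e-05). After thinning its log2 fold change was 2.79 and no longer passed (adjusted p = 0.077). Mesenchymal barcodes held Col4a1 at 65.8, 62.5 and 42.2 CPM, above the progenitors in control 2. Notch3 completed the 12 genes named and is given below with its pathway.

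**Figure D2:**
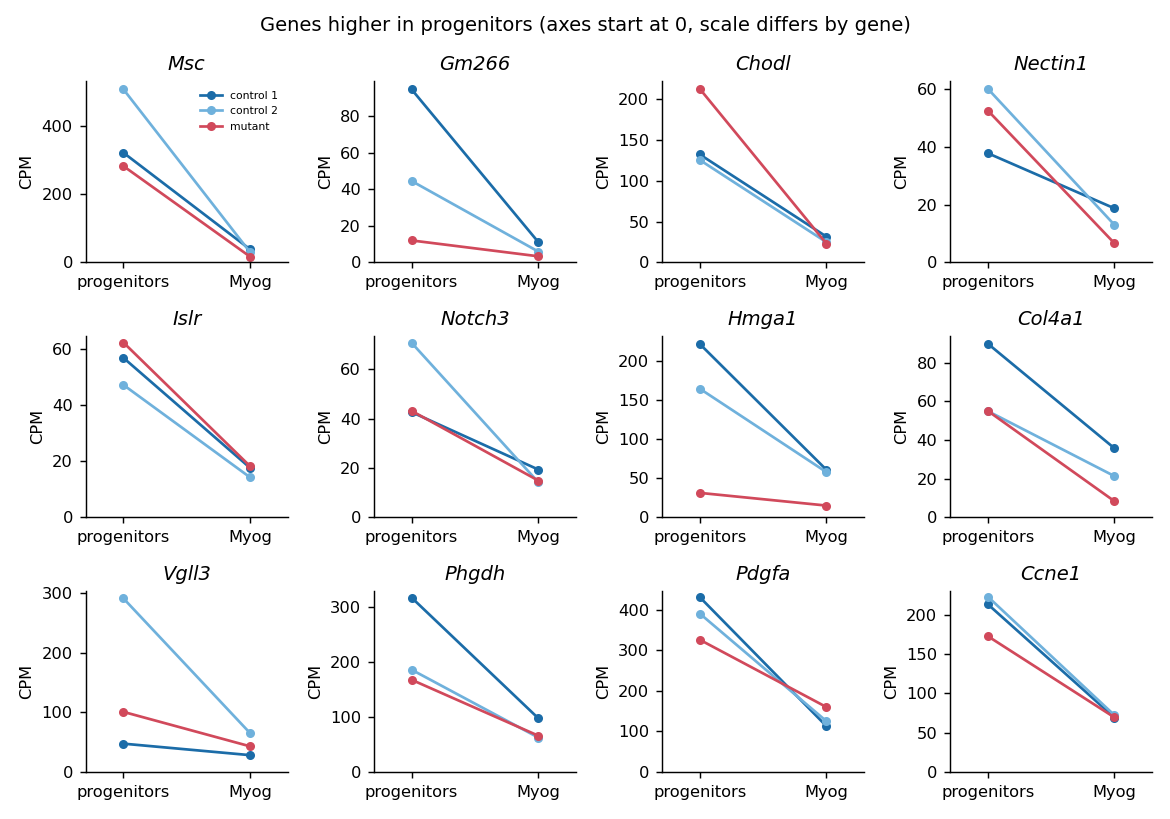
Summed level (CPM, linear axes from 0) of the 12 genes named as higher in progenitors, with 1 line per library from progenitors to Myog barcodes. Each line falls, and Msc, Hmga1 and Gm266 sit lowest in the mutant in both populations.

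Of 10 branchiomeric factors, 8 were tested, 2 were higher in progenitors and 0 lower, beside 5.07% and 7.61% of all genes tested. The median log2 fold change of those tested was 0.31. The list summed to 592, 815 and 537 CPM in progenitors against 309, 285 and 173 CPM in Myog barcodes. Msc was its most abundant member in progenitors, and the group was not tested as a whole. Beside Msc the call was Eya1, a transcriptional coactivator, at 52.1, 21.0 and 24.0 CPM against 7.61, 3.54 and 6.59 CPM (2.43, SD 0.48, adjusted p = 5.86e-04), and the groups did not overlap. Tbx1 was at 23.7, 60.2 and 26.3 CPM against 35.7, 22.4 and 16.5 CPM (0.60, SD 1.02, adjusted p = 0.30). The groups overlapped for Tbx1, and missing the test does not show that they were alike. Tcf21 was at 3, 0 and 0 UMIs in progenitors.

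In the Notch pathway the receptor Notch3 and the targets Hes1, Hey1 and Heyl were higher in progenitors, while the ligand Dll1, Hes6 and Rbpj were lower. Of 15 genes, 11 were tested, 4 were higher and 3 lower, beside 5.07% and 7.61% of all genes tested. Notch3, a receptor, was at 42.6, 70.7 and 43.1 CPM against 19.3, 14.2 and 14.8 CPM (1.66, SD 0.60, adjusted p = 2.63e-04). Hey1, a repressor that is a direct Notch target, was at 52.1, 44.5 and 28.7 CPM against 8.78, 3.54 and 3.30 CPM (2.92, SD 0.54, adjusted p = 6.26e-06). Heyl, another target, was at 37.9, 47.2 and 38.3 CPM against 5.85, 14.2 and 11.5 CPM (1.94, SD 0.55, adjusted p = 6.16e-04). For all of these the lowest progenitor library was above the highest Myog library. Hes1 was higher as well (0.70, SD 0.65, adjusted p = 0.0058), although the 402 CPM of control 1 progenitors were close to the 366 CPM of its Myog barcodes, and 33 of its 85 UMIs in control 1 progenitors were in 1 member. The call was lost without control 2, without the block (0.45, adjusted p = 0.63), with a gate of 3 UMIs (adjusted p = 0.12) and with DESeq2 (adjusted p = 0.098).
The ligand Dll1 had 0, 1 and 0 UMIs in progenitors against 17.0, 23.6 and 24.7 CPM in Myog barcodes. Over the summed libraries its level was 20.4 times lower (95% counting interval 3.67 to 808, adjusted p = 2.81e-04 by edgeR), and a single UMI sets that value. The Dll1 call was lost with DESeq2 (-4.34, adjusted p = 0.051). Hes6 was at 89.9, 165 and 134 CPM against 274, 354 and 310 CPM (-1.31, SD 0.27, adjusted p = 1.54e-07), but the difference was -0.072 (adjusted p = 0.84) when a single Myog UMI was enough for the comparison group. Rbpj, the DNA-binding partner of the pathway, was lower as well (-0.88, SD 0.12, adjusted p = 0.0098), a call lost without the mutant (-0.77, adjusted p = 0.17), without the block (adjusted p = 0.062), with DESeq2 (adjusted p = 0.33) and with Myog of 1 UMI (-0.37, adjusted p = 0.32). The receptor Notch2, at 137, 162 and 132 CPM, and the non-canonical ligand Dlk1, at 601, 592 and 465 CPM, did not pass. Jag1 was at 23.7, 28.8 and 28.7 CPM in progenitors and 19.9, 34.2 and 29.7 CPM in Myog barcodes. Notch1 was at 14.2, 21.0 and 14.4 CPM against 30.4, 34.2 and 28.0 CPM and did not pass either. Without control 2 the counts were 2 higher and 2 lower of 10 tested, Notch3 (1.26, adjusted p = 0.066) and Hes1 (0.37, adjusted p = 0.41) being lost. DESeq2 called 2 and 1, and Notch3 was lost there too (1.64, adjusted p = 0.067). With Myog of 1 UMI the counts were 4 higher and 0 lower of 11 tested.

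Genes of DNA replication were higher in progenitors, where 5.07% of all genes tested were higher and 7.61% lower. Of 13 S phase genes, all were tested, 9 were higher and 0 lower, with a median log2 fold change of 1.02. Pcna, the sliding clamp, was at 270, 231 and 115 CPM against 110, 83.8 and 70.9 CPM (1.17, SD 0.40, adjusted p = 5.51e-06), and Tyms, which makes thymidylate, at 142, 113 and 98.2 CPM against 64.4, 39.0 and 46.2 CPM (1.21, SD 0.24, adjusted p = 5.22e-05). The list summed to 1359, 1037 and 915 CPM in progenitors and 637, 488 and 486 CPM in Myog barcodes, and to between 499 and 617 CPM in mesenchymal barcodes. All 3 progenitor sums were above those of the other populations. After thinning to 2000 UMIs, 61.5%, 48.6% and 47.8% of progenitors and 30.0%, 13.6% and 24.3% of Myog barcodes held at least 2 UMIs of the list. The count of 9 became 7 without control 1, 7 of 12 tested without control 2 and 3 with DESeq2.
G2/M genes were less firm. Of 18, 17 were tested and 7 were higher, among them Top2a at 270, 369 and 249 CPM against 207, 130 and 170 CPM (0.79, SD 0.61, adjusted p = 0.0012) and Aurkb, the kinase of the chromosomal passenger complex, at 42.6, 73.3 and 55.1 CPM against 25.7, 22.4 and 26.4 CPM (1.16, SD 0.50, adjusted p = 0.0042). The list summed to 2448, 3280 and 2893 CPM against 2035, 1788 and 1832 CPM. Control 1 had the smallest difference. Without control 1 the count was 10, and without control 2 it was 0 of 17, with 1 called by DESeq2 over all libraries.

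**Figure D3:**
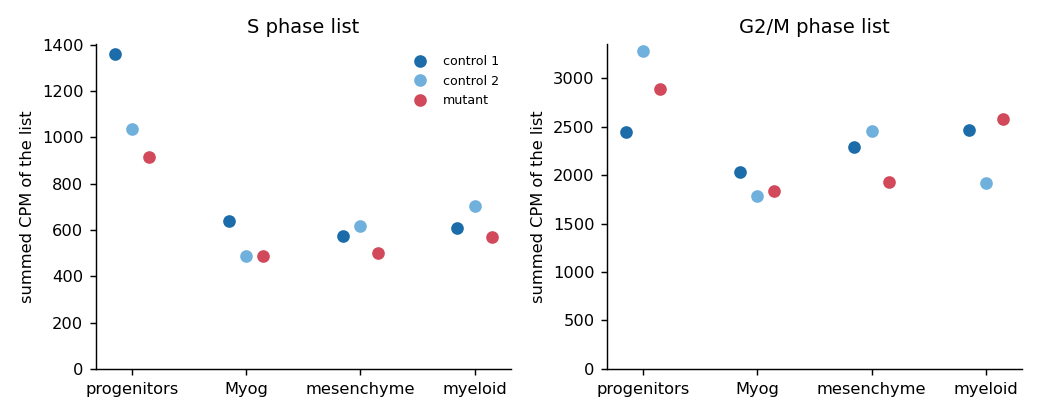
Summed level (CPM, linear axes from 0) of the 13 S phase and 18 G2/M genes in 4 populations, with 1 point per library. The S phase sum is highest in progenitors, at 915 to 1359 CPM, and the G2/M sum of control 1 progenitors lies among those of the mesenchymal and myeloid barcodes.

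Cell cycle exit genes stood on the other side. Of 7 cyclins D and inhibitors, 3 were lower in progenitors and 1 was higher, beside 7.61% and 5.07% of all genes tested. Cdkn1a, the p21 inhibitor that Myod1 is known to induce, was at 14.2, 7.86 and 19.2 CPM in progenitors against 393, 328 and 399 CPM in Myog barcodes (-4.79, SD 0.51, adjusted p = 1.11e-19), and 8 of 96 progenitors held any. Rb1, the retinoblastoma protein that keeps muscle cells out of the cycle, had 0, 1 and 2 UMIs in progenitors against 60.3, 88.5 and 85.7 CPM, 24.5 times lower over the summed libraries (95% counting interval 8.38 to 119, adjusted p = 5.62e-11). Cdkn1c, the p57 inhibitor, was abundant in both, at 2949, 3301 and 2599 CPM against 4433, 6100 and 6027 CPM (-0.94, SD 0.31, adjusted p = 3.52e-08). Its log2 fold change was 0.16 when a single Myog UMI was enough for the comparison group. Ccnd1 was higher in progenitors, at 118, 65.5 and 134 CPM against 66.1, 43.7 and 47.8 CPM (0.95, SD 0.47, adjusted p = 0.0024), with control 2 just below the highest Myog library. The call was lost without the mutant (0.71, adjusted p = 0.17), with DESeq2 (adjusted p = 0.17) and with Myog of 1 UMI (0.29, adjusted p = 0.34).

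Fusion genes and most contractile genes were at lower levels in progenitors. Their direction is close to what the rule fixes through Myog, Ttn, Mylpf and Acta1, so the counts describe the gate. Of 11 differentiation and fusion genes in the files, 9 were tested, 6 were lower and 0 higher. Mymk and Mymx, the 2 fusion proteins of myoblasts, each had 1 UMI, both in control 1, against 176, 172 and 153 CPM and 249, 386 and 305 CPM in Myog barcodes. Their summed levels were 173 times lower (95% counting interval 31.0 to 6815) and 299 times lower (53.7 to 11825). Mef2c, the muscle enhancer factor, was still counted in 21 of 96 progenitors, at 28.4, 10.5 and 57.5 CPM against 533, 463 and 541 CPM (-4.03, SD 1.12, adjusted p = 2.68e-18), and the mutant value was the highest. Jam3, a junctional adhesion molecule used in fusion, was at 37.9, 49.8 and 38.3 CPM against 160, 218 and 170 CPM (-2.18, SD 0.035, adjusted p = 1.41e-10).
Of 26 sarcomere and calcium handling genes, 22 were tested and 21 were lower, with a median log2 fold change of -4.82, or -3.85 with genes at 0 set to 3 UMIs. Not all contractile RNA was missing. Tpm1, a tropomyosin with forms outside muscle, was at 554, 671 and 788 CPM against 842, 795 and 951 CPM (-0.41, SD 0.20, adjusted p = 0.048), and was the most abundant member in progenitors. Its call was lost without control 1, control 2 or the mutant (adjusted p = 0.12, 0.16 and 0.10) and with DESeq2 (adjusted p = 0.12). Slow troponin Tnnt1 was at 436, 144 and 252 CPM against 1123, 852 and 1004 CPM (-1.99, SD 0.60, adjusted p = 9.72e-13). Actc1, cardiac actin, was at 147, 31.4 and 16.8 CPM against 3079, 2542 and 2125 CPM. Of the 31 UMIs of control 1 progenitors, the highest of the 3 libraries, 15 were in 1 member. The whole list summed to 1648, 1344 and 1399 CPM in progenitors and to 467, 126 and 257 CPM in myeloid barcodes.
The 12 genes with the smallest fitted log2 fold changes under the naming rule were Myh3, Tnnt2, Hspb2, Cav3, Mustn1, Traf3ip3, Smpx, Myoz2, Mymx, Cox6a2, Tnnc2 and Tnni1. Of these, 8 had 0 UMIs in the progenitors of all libraries, which allows at most 14.2, 7.86 and 7.19 CPM. Embryonic myosin Myh3, at 207, 139 and 140 CPM in Myog barcodes, was at least 14.6-fold lower in the library that allows least, and caveolin Cav3 at least 6.76-fold lower. For genes at 0 the fitted value depends on the prior count, and the counts allow a difference as small as 3.005-fold for Cox6a2, so their order is not measured. Tnnt2 had 1, 0 and 0 UMIs against 703, 553 and 600 CPM.

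**Figure D4:**
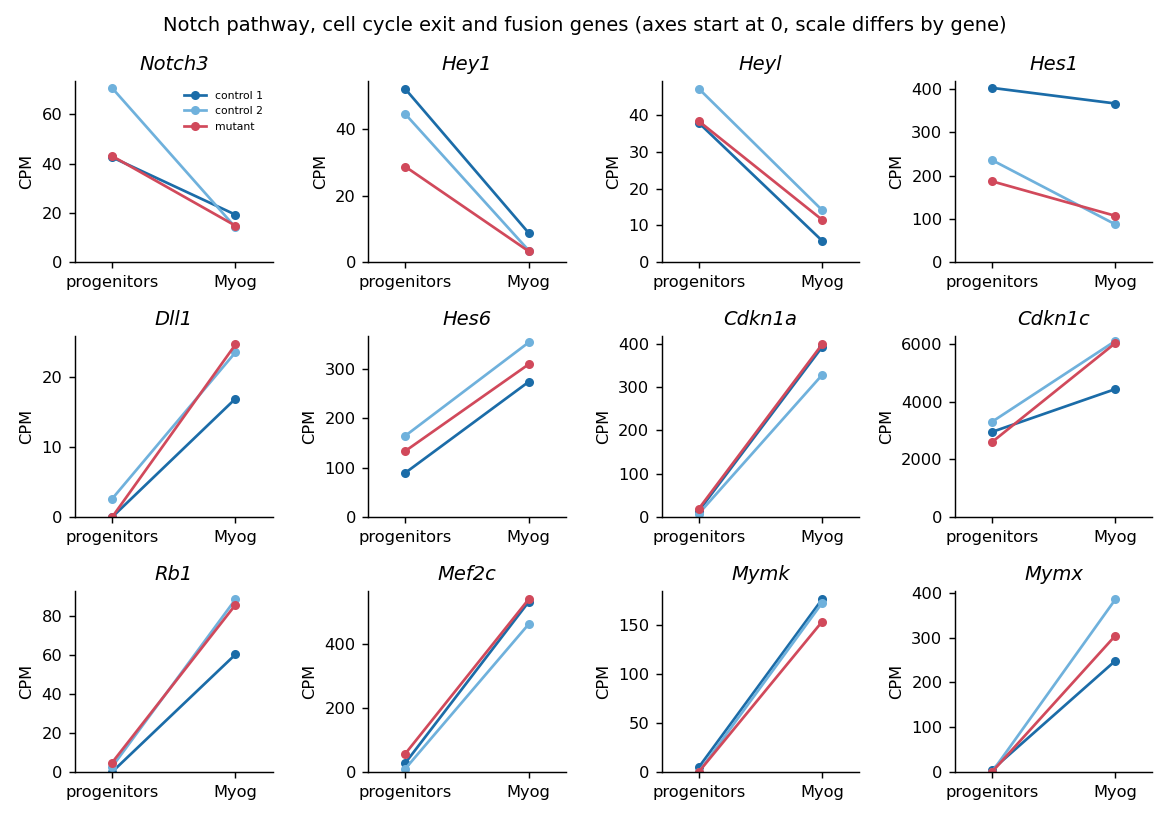
Summed level (CPM, linear axes from 0) of Notch pathway, cell cycle exit and fusion genes, with 1 line per library from progenitors to Myog barcodes. Notch3, Hey1 and Heyl fall along each line, and Dll1, Hes6, Cdkn1a, Cdkn1c, Rb1, Mef2c, Mymk and Mymx climb.

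Receptors for signals from the surrounding mesenchyme were measured at low levels. The counts of list members here stand beside 5.07% of all genes tested that were higher in progenitors and 7.61% that were lower. Of 12 FGF receptors and feedback genes, 5 were tested and 1 was higher, Spry1, a feedback inhibitor of FGF signalling, at 42.6, 73.3 and 64.7 CPM against 29.8, 22.4 and 18.1 CPM (1.32, SD 0.73, adjusted p = 0.0011). That call was lost without control 2, where the log2 fold change was 1.10, and with DESeq2 (adjusted p = 0.14), which left 0 genes of the list called. Fgfr4, the receptor known from muscle progenitors, was counted in 40 of 96 progenitors at 28.4, 65.5 and 40.7 CPM against 20.5, 31.9 and 29.7 CPM (0.67, SD 0.33, adjusted p = 0.17). Fgfr1 was at 71.0, 110 and 103 CPM against 108, 70.8 and 87.4 CPM. Among 14 TGF-β, activin and BMP genes, 8 were tested and 2 were higher. Id3, an inhibitor of basic helix-loop-helix factors, was at 554, 406 and 532 CPM against 322, 228 and 279 CPM (0.81, SD 0.076, adjusted p = 1.46e-04), and its groups did not overlap. Acvr2a, an activin and myostatin receptor, was at 33.1, 31.4 and 35.9 CPM against 14.0, 14.2 and 14.8 CPM (1.17, SD 0.065, adjusted p = 0.043), a call that most other settings did not keep. Tgfbr1 itself was at 37.9, 68.1 and 64.7 CPM in progenitors, from 8, 26 and 27 UMIs, so the mutant lay between the controls. These counts come from the 3′ ends of transcripts and do not show whether the deleted region is present.
Of 10 surface genes known from adult satellite cells, 9 had UMIs in progenitors, with Ncam1 counted in 44 of 96 members and Cdh15 in 41. Against Myog barcodes 5 were tested, 3 were lower and 0 higher. Without control 1 the counts were 3 lower and 1 higher. The group was not tested as a whole. Cdh15 was at 56.8, 73.3 and 47.9 CPM against 79.6, 158 and 115 CPM (-1.07, SD 0.41, adjusted p = 5.20e-04), and it turned to 0.28 when a single Myog UMI was enough for the comparison group. Ncam1 was at 104, 89.1 and 132 CPM against 329, 267 and 241 CPM (-1.38, SD 0.44, adjusted p = 1.63e-07) and Megf10 was lower too (-1.72, SD 0.92, adjusted p = 1.85e-04), a call lost without control 2 (-1.30, adjusted p = 0.060), with Myog of 1 UMI (-0.37, adjusted p = 0.55) and with DESeq2 (adjusted p = 0.082). DESeq2 called 1 of the 5 lower, Cdh15 being lost as well (adjusted p = 0.10). Of 7 neuromuscular junction genes, 4 were tested and all 4 were lower, among them the acetylcholine receptor subunit Chrna1, the most abundant in Myog barcodes, at 0, 36.7 and 7.19 CPM against 105, 172 and 134 CPM. In progenitors Rapsn, which clusters that receptor, was the most abundant, with 35 UMIs in 28 members. The count of 4 was 3 without control 1, without control 2 and without the block, and 2 with DESeq2 and with Myog of 1 UMI, where Rapsn turned to 0.41. Of 6 laminin receptors, 4 were tested and 1 was lower, Bcam, a call lost without control 2 (adjusted p = 0.064) and without the mutant (adjusted p = 0.056). Dystroglycan, Dag1, was at 28.4, 83.8 and 76.6 CPM against 59.1, 63.8 and 54.4 CPM.
Stress genes gave few calls, and these depended on the setting. Of 10 immediate early and heat shock genes, 7 were tested and 1 was lower, Junb (-0.87, SD 0.13, adjusted p = 0.0035, and 0.055 without the mutant), and the list summed to 1255, 977 and 1461 CPM in progenitors against 1530, 752 and 1264 CPM. With mesenchymal barcodes left out, 3 of 7 were higher and 0 lower, and the counts were the same with Myog of 3 UMIs. With a gate of 1 UMI 3 of 8 were higher and 0 lower. DESeq2 called 0 in either direction, as did the fit without the block. Among markers of other cells, 3 of 10 mesenchyme markers tested were lower, among them Col1a1 at 199, 283 and 331 CPM against 396, 308 and 788 CPM (-0.84, SD 0.59, adjusted p = 5.62e-04, and -0.53 with adjusted p = 0.11 without the mutant). Its log2 fold change was 0.29 once barcodes with mesenchymal UMIs were left out of both populations. The count of the list turned to 10 of 12 higher and 0 lower with a gate of 1 UMI. With Myog of 3 UMIs it was 4 of 8 higher and 0 lower. With doublets left out, with mesenchymal barcodes left out and without the block, 0 were called in either direction. Of 6 mural cell markers only Acta2 was tested, an actin that embryonic muscle also uses, at 331, 259 and 271 CPM against 1043, 1001 and 880 CPM (-1.81, SD 0.16, adjusted p = 4.96e-13).

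Progenitors of the mutant were set beside those of both controls by size alone. A gene was counted when the mutant differed at least 2-fold from each control on the same side, reached 50 CPM on the higher side (the mutant, or each control), and had a 95% Poisson interval that overlapped neither control. By this rule 4 of 2356 eligible genes were higher (0.17%) and 13 of 1962 were lower (0.663%). Against a single control, control 2 or control 1, the rule counted 21 or 45 genes as higher and 50 or 58 as lower. Between the 2 controls, the same fold and interval set 44 genes higher in control 1 and 64 higher in control 2. No member of the Notch, FGF, TGF-β, branchiomeric or fusion lists met the rule. Many of these members lay below 50 CPM and could not be counted. With shares of 0.17% and 0.663% over all eligible genes, a count of 0 in short lists does not show that the genotypes were alike.
The higher genes were Nrp2, Lrp1, Zfhx3 and Gm2000. Nrp2, a receptor for semaphorins and VEGF, had 1, 1 and 21 UMIs, or 4.73, 2.62 and 50.3 CPM, but 15 of the 21 came from a single mutant barcode. Lrp1, an endocytic receptor, had 2, 5 and 24 UMIs in 2, 5 and 13 members, or 9.47, 13.1 and 57.5 CPM (95% Poisson interval in the mutant 36.8 to 85.5), a log2 ratio of 2.37 with a gap of 0.47 between the controls. Zfhx3, a transcription factor, had 4, 23 and 56 UMIs, or 18.9, 60.2 and 134 CPM (101.3 to 174 in the mutant), a log2 ratio of 1.99 with a gap of 1.67. Over all kept barcodes their log2 ratios were 0.28 for Lrp1 and -0.031 for Zfhx3. In mutant mesenchymal barcodes Nrp2 was at 146 CPM and Lrp1 at 97.2 CPM, above the progenitors. With barcodes that held mesenchymal UMIs left out, the log2 ratio was 0.64 for Nrp2 and 0.66 for Lrp1, neither of which then met the rule, while that of Zfhx3 was 1.91. Of the genes counted by the rule, 2 of 4 higher and 7 of 13 lower were counted in that setting too. Gm2000, a gene model without a settled name, was at 42.6, 41.9 and 156 CPM in progenitors, and its log2 ratio of 1.88 was near the 1.63 of all kept barcodes.
The histone gene Hist1h2ap, a member of a family of near copies whose reads may be split, was at 2755, 4073 and 749.7 CPM (log2 ratio -2.16, and -1.94 over all kept barcodes). Hmga1 had a ratio of -2.62 against -1.99, and Gstp1, a glutathione transferase, was at 123, 134 and 26.3 CPM with -2.28 against -1.40. In Myog barcodes the log2 ratios were -1.41 for Hist1h2ap, -2.00 for Hmga1 and -1.15 for Gstp1, so all 3 genes were lower in the mutant there too, each by less than in progenitors. Prkaca, the catalytic subunit of protein kinase A, was at 114, 76.0 and 26.3 CPM (-1.82, and -0.74 over all kept barcodes). Rbmx and Pabpc4, which bind RNA, had ratios of -1.30 and -1.26 against -0.53 and -0.25. The globins Hbb-bt, Hba-a1 and Hbb-bs had ratios of -2.90, -2.87 and -1.99 with gaps of 2.03, 1.42 and 1.45 between the controls. Over all kept barcodes their ratios were -0.49, -0.98 and -0.66, but in Myog barcodes they were 2.19, 2.27 and 1.93, higher in the mutant. With a gate of 1 UMI the progenitor ratios turned to higher in the mutant as well, with values given at the end. Pcna was lower as well, at 270, 231 and 115 CPM (log2 ratio -1.12, gap 0.23), the 1 member of the cell cycle lists to meet the rule.
Msc had a log2 ratio of -0.52 with a gap of 0.66 between the controls, and Spry2 -0.88 with a gap of 0.49 and overlapping intervals. Which of these differences belong to the genotype and which to the library cannot be told apart with 1 mutant library.

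**Figure D5:**
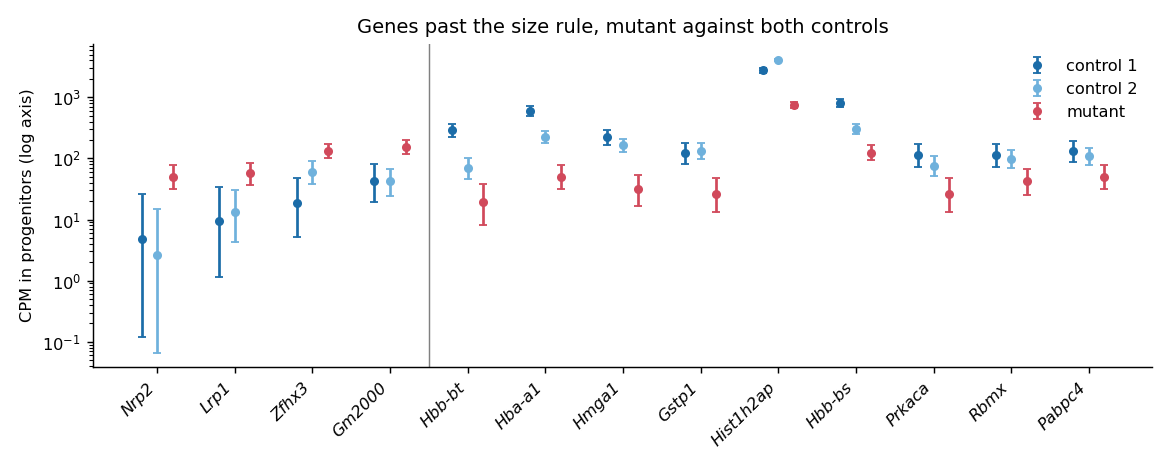
Level of 13 genes named by the size rule in progenitors of each library (points, CPM on a log axis, with 95% Poisson intervals), higher in the mutant on the left of the line and lower on the right. The mutant interval of each gene overlaps neither control, and the controls are far apart for Zfhx3, Hbb-bt, Hbb-bs and Hba-a1.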

How the data were processed

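The authors counted reads with Cell Ranger and deposited raw UMI counts per gene and barcode for each library, with no normalization. The file headers and the protocol name Cell Ranger 4.0.0, while the submitters' processing notes list 3.1.0 and the mm10 build. Gene coordinates are those of GENCODE on GRCm38 (32235 of 32285 genes matched). The members and gene lists were chosen with earlier results of these data known.

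Barcodes were gated on raw counts, and intervals are exact at 95%. UMIs were summed per library and population and tested with edgeR 4.0.16 in R 4.3.3 (TMM, filterByExpr, quasi-likelihood, Benjamini-Hochberg). The library was the block, since both populations come from the same library. The fit was tested on simulated data. Sums and intervals were made in Python 3.11.15 (scipy 1.17.1, pandas 2.3.3, numpy 2.4.6). Scrublet in scanpy 1.11.5 marked 0, 0 and 1 barcodes at its own threshold, so doublets stayed in. An alternative left out a share that scales with the number of barcodes deposited for the library, 63, 132 and 604 barcodes, of which 1, 1 and 3 were progenitors.

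Named genes were the 12 with the largest and the 12 with the smallest log2 fold change past an adjusted p of 0.05, with at least 50 CPM in the higher population and 1 direction in all libraries, and for the genotypes the 10 largest in each direction by the size rule, where only 4 rose. Gate, mitochondrial (first comparison) and sex-linked genes (second) were left out. A count of 0 was set to 3 UMIs for a ratio. Whether the control libraries came from separate embryos is not given in the sources used here, so p-values measure the spread between libraries only. Genes withheld from this text, among them 1 named by the size rule, are not reported here.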

Additional observations from a re-analysis of the deposited data

Results flagged for a closer look

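Hba-a1, an adult hemoglobin chain, was close to equal in the populations of both controls (log2 ratios of 0.064 and 0.19) and lower in progenitors of the mutant. It was at 601 and 225 CPM in control progenitors against 575 and 197 CPM in their Myog barcodes, and at 50.3 CPM against 1624 CPM in the mutant. The log2 ratio of progenitors over Myog barcodes was thus lower in the mutant by a difference of -5.14, which was not tested. The summed erythroid list was at 311 CPM in mutant progenitors and 5790 CPM in mutant Myog barcodes.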

How the results depend on the processing

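A count of 0 in progenitors allows up to 14.2, 7.86 and 7.19 CPM, so differences below these levels were not detectable. With a gate of 1 UMI the mutant share over the mean control share was -1.21 (log2), with gating after thinning -1.13, against -0.48, and without either control replicate it ranged from -0.77 to -0.11. For Myog barcodes a limit of 1 Myog UMI gave -2.86 against -1.84, and leaving out a control replicate gave -2.26 to -1.26. Progenitors as a percent of both populations were 39.6%, 48.4% and 53.8% with a gate of 1 UMI and 3.39%, 15.6% and 26.6% with Myog of 1 UMI. In the mutant they were 28.0% with a gate of 3 UMIs and 28.7% without Pax7 in the gate. Genes higher in progenitors numbered 571 of 7396 tested with a gate of 1 UMI, 689 of 8178 with Myog of 1 UMI and 88 of 1744 after thinning. Of 5942 tested, 157 were higher without the replicate block and 66 with DESeq2, against 301. Leaving out a replicate gave 116 to 249. Genes lower numbered 828, 702, 155, 314 and 194 in the same order, against 452, and 300 to 377 without a replicate. By the size rule, genes higher in the mutant numbered 2 with doublets left out, 10 with a gate of 1 UMI, 2 without Pax7, 0 after thinning, 2 as a mean over barcodes, 2 at a minimum of 100 CPM and 21 to 45 without a control replicate, against 4. Genes lower numbered 8 with a gate of 3 UMIs, 3 after thinning and 50 to 58 without a control replicate, against 13. The S phase list was 0.65 with a gate of 1 UMI, 1.28 after thinning and 1.22 with Myog of 3 UMIs, an alternative added after seeing the data, against 1.03.

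Several log2 fold changes turned. With Myog of 1 UMI they were 0.28 for Cdh15, 0.21 for Tpm1, 0.53 for Nexn, 0.41 for Rapsn and 0.16 for Cdkn1c. Col1a1 was 0.16 with doublets left out, 0.61 with a gate of 1 UMI, 0.29 with mesenchymal barcodes left out and 0.70 with Myog of 3 UMIs. Postn was 0.10, 0.62 and 0.31 with doublets left out, a gate of 1 UMI and Myog of 3 UMIs, and Lum was 0.51 and 0.22 with the latter 2. With a gate of 1 UMI the globins Hba-a1, Hba-a2, Hbb-bs and Hbb-bt were 0.48, 0.29, 0.073 and 0.041, and Hba-a1 was 0.11 without the mutant replicate, with a range of -2.28 to 0.11 when any replicate was left out. Between the genotypes Nrp2 was -0.28 after thinning, and with a gate of 1 UMI Lrp1 was -0.064, Hbb-bt 2.27, Hba-a1 2.38 and Hbb-bs 1.98. The causes were not tested. Without the replicate block 77 of 95 gene calls were held and 18 were lost. With DESeq2 61 were held and 34 were lost, and without control 2 71 were held and 20 were lost.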
